A study of Rattus norvegicus with 12 samples.

Results

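The 10 genes described here help to build the elastic and proteoglycan part of the extracellular matrix, and they were followed in rat tissue after amiodarone, an antiarrhythmic drug. They were 3 lysyl oxidases (Lox, Loxl1 and Loxl2), 3 elastic fibre genes (Eln, Fbn1 and Mfap4) and 4 small leucine-rich proteoglycans (Dcn, Lum, Bgn and Ogn). The members were chosen by name, with earlier results of these data known. Every non-control probe of the array annotated with one of these symbols was taken. This gave 14 of 41012 probes and 10 of 35279 genes or unnamed features. Lox, Loxl1, Fbn1 and Ogn each had 2 probes.

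Total RNA of male Sprague-Dawley rats, taken from left ventricle or from blood, was hybridised to single-colour Agilent oligonucleotide arrays. Treated rats received amiodarone orally at 300 mg/kg per day for 10 days, and control rats received the vehicle, 1% methylcellulose. The rats' age is labelled 10 weeks when treatment began and, elsewhere, 11 weeks. Each tissue had 3 amiodarone and 3 vehicle pools with 1 array each. The number of rats in a pool is not stated, so the p-values measure the spread between pools.

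Lysyl oxidases are secreted, copper-dependent enzymes that oxidise lysine residues of collagen and elastin, from which covalent crosslinks form. Elastic fibres consist of crosslinked elastin laid down on microfibrils of fibrillin. Small leucine-rich proteoglycans carry short protein cores that bind collagen fibrils and influence their diameter and spacing. In the heart most of these proteins are made by fibroblasts and, around vessels, by smooth muscle cells.

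The levels below are hybridisation signals of single 60-base probes, and probes of 3 genes that fell are shown first to make plain what was measured. The Loxl1 probe shown lies at chr8:62088318-62088377 (minus strand, build rn4, as in all probe positions here), that of Loxl2 at chr15:50067990-50068049 (plus strand) and that of Mfap4 at chr10:47648266-47648325 (plus strand).
Loxl1: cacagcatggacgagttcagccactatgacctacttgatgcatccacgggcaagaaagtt
Loxl2: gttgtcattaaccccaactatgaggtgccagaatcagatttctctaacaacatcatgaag
Mfap4: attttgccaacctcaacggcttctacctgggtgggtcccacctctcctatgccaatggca

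The Eln probe, chr12:23067275-23067416 (plus strand), is shown because elastin has a repetitive coding sequence. Capitals mark the 3 copies of NCTGGT, read on the printed strand. At least 3 copies occurred in 6 of 41012 probes (0.0146%).
Eln: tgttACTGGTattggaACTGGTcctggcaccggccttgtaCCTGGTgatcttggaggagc

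The probes of Dcn, chr7:35037331-35041132 (plus strand), and Lum, chr7:35086409-35086468 (plus strand), are shown as a pair because these related genes lie side by side and gave different results. The 60 bases of the Dcn probe span 3802 bases of the genome, so the probe joins separate stretches of it. Capitals mark the longest run that both probes hold, which is 12 bases long and occurs in 2 of 41012 probes, these same ones.
Dcn: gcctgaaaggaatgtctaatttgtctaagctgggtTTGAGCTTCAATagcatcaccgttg
Lum: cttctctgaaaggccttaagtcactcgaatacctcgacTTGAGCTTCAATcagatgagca

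On the heart arrays 21233 to 25032 of 43379 spots were well above background, and no spot of a member was saturated. Values are given as scaled signal, which is the processed signal divided by the 75th percentile of the array. That percentile ranged from 105.7 to 164.7 in vehicle and from 103.2 to 150.9 in amiodarone hearts. Of the 14 member probes, 12 were well above background on all 6 heart arrays, the exceptions being the Eln probe and the second Lox probe. Signals of different probes are not compared as levels of their genes, since a probe's brightness depends on its sequence. For the same reason, the summed signal of a list follows its brightest probes. Cardiomyocyte markers were present at high signal, with summed scaled signals of 10304 to 14377 in vehicle and 12968 to 14022 in amiodarone pools. The heart arrays were spread over 2 slides, of which the first held pools 1 and 2 of both groups and the second held pool 3 of both.

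In the left ventricle, 6 of the 10 members fell after amiodarone and none rose. Falling genes were Loxl1, Loxl2, Eln, Fbn1, Mfap4 and Lum. Eln entered the test only through its 3 vehicle arrays, since 1 amiodarone array alone was well above background. Where all 6 heart arrays had to be well above background, Eln was not tested and 5 members fell. "Fell" and "rose" denote p below 0.05 in limma's moderated test on log2 scaled signal, after Benjamini-Hochberg adjustment over every feature tested in heart, with 3 pools in each group. Of the 17463 features tested, 8.60% passed this threshold, 4.13% as lower and 4.47% as higher. The median log2 difference of the members, amiodarone minus vehicle, was -1.10, beside 0.03 over all features. Since the members were chosen with earlier results of these data known, this excess cannot be taken as independent of that choice. In 7 of the 10 members the groups did not overlap, and the same held for 32.5% of all features. Because RNA came from whole ventricle, fewer cells of a type and less RNA per cell cannot be told apart.

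**Figure D1:**
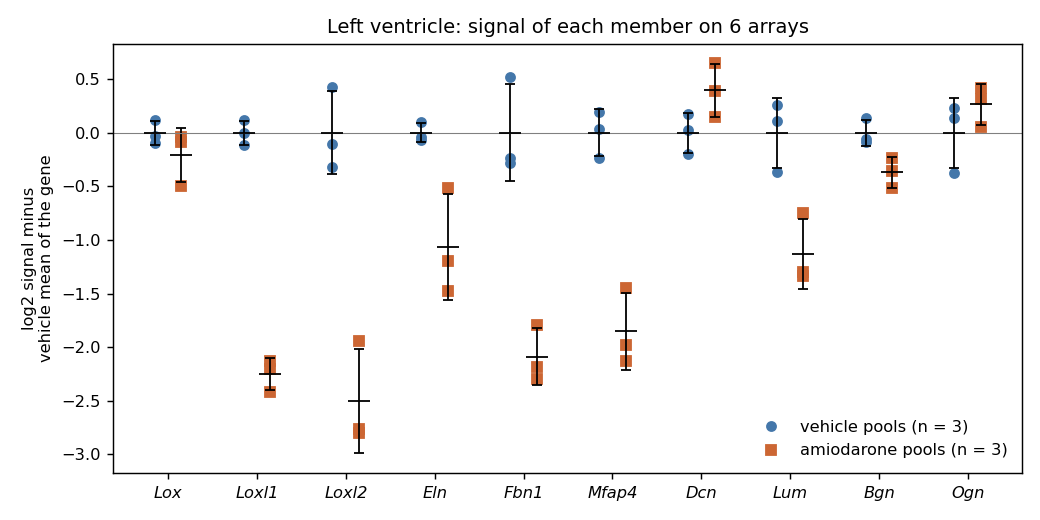
Log2 scaled signal of each member on the 6 heart arrays, minus that gene's mean over the vehicle pools (vertical axis, log2). Circles are vehicle pools, squares are amiodarone pools, and bars give the mean ± SD of 3 pools. Loxl1, Loxl2, Fbn1 and Mfap4 lie more than 1 log2 unit below every vehicle pool in each amiodarone pool, while Lox, Dcn and Ogn overlap between groups.

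The lysyl oxidases divided into genes with a large fall and one without a detected change. Loxl1, whose protein acts mainly on elastin, had scaled signals of 22.0, 25.7 and 23.7 in vehicle pools 1 to 3 and of 5.14, 4.44 and 5.43 in amiodarone pools 1 to 3. Every amiodarone pool was below every vehicle pool, with a log2 difference of -2.25 (SE 0.15, limma adjusted p = 0.000375), a 4.76-fold lower signal. These values come from the brighter Loxl1 probe, at chr8:62083171-62083230 (minus strand). The dimmer Loxl1 probe, the one printed above, read 4.88, 6.55 and 5.70 in vehicle and 1.09, 0.944 and 1.13 in amiodarone pools. It gave nearly the same difference, -2.43 (limma adjusted p = 0.000462 with each probe tested on its own).

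Loxl2, a lysyl oxidase with scavenger receptor domains that acts on collagen IV among other substrates, fell by 2.51 on the log2 scale (SE 0.29, limma adjusted p = 0.00315). Its scaled signals were 4.07, 5.91 and 3.51 in vehicle and 1.14, 0.627 and 0.645 in amiodarone pools. The groups were well apart, and the difference is a 5.68-fold lower signal. By slide, the difference was -2.54 on the first and -2.44 on the second for Loxl2, and -2.31 and -2.12 for Loxl1.

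Lox, the founding member of the family, read 1.65, 1.83 and 1.58 in vehicle and 1.64, 1.59 and 1.20 in amiodarone pools. Only amiodarone pool 3 lay apart from the rest, on the low side, and the groups overlapped. Lox differed by -0.21 on the log2 scale (SE 0.17, limma adjusted p = 0.486), with a 95% interval from -0.60 to 0.18. The interval does not reach the falls measured for Loxl1 and Loxl2. A second Lox probe was well above background on only 2 of 3 arrays in each group and was not tested. Its mean difference was -0.50.

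A ratio within each array compares how far a pair of genes moved, with brightness of the probes cancelling between groups. The pairs were picked after the values had been seen, and the ratios are given as a description. An exact permutation test gave p = 0.1 for each of the 3 pairs. That is the lowest it can give with 3 pools in each group, so it cannot decide. In vehicle hearts the log2 ratio of Loxl1 to Lox was 3.82 ± 0.08 (SD, n = 3), against 1.77 ± 0.36 (SD, n = 3) after amiodarone. It ranged from 3.73 to 3.90 in the first group and from 1.49 to 2.18 in the second, so the groups were apart.

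Among the other lysyl oxidases, Loxl3 also fell, by 0.89 on the log2 scale (SE 0.16, limma adjusted p = 0.0183). Its scaled signals were 0.253, 0.303 and 0.239 in vehicle and 0.124, 0.144 and 0.161 in amiodarone pools. The Loxl3 call held in 12 of 21 alternative settings and in 2 of the 6 fits that left out 1 heart array, those without amiodarone pool 1 or amiodarone pool 3, with adjusted p up to 0.0735 in the others. Under normexp, another background correction, here with 50 added to every signal, Loxl3 differed by -0.18 (adjusted p = 0.476). An added constant by itself makes the log2 differences of dim probes smaller. Loxl4 was not well above background on all 3 arrays of either group and was not tested.

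All 3 elastic fibre members fell. Fbn1 encodes fibrillin-1, the main microfibril protein, and read 6.98, 11.8 and 6.75 in vehicle and 2.38, 1.81 and 1.67 in amiodarone pools. Vehicle pool 2 was the highest, and the lowest vehicle pool was still well above each amiodarone pool. The log2 difference was -2.09 (SE 0.25, limma adjusted p = 0.00389). The second Fbn1 probe read 1.61, 2.49 and 2.50 against 0.812, 0.502 and 0.643, with a difference of -1.75 (limma adjusted p = 0.00724 with each probe tested on its own). Both Fbn1 probes lie close together on chromosome 3, at chr3:112608789-112608848 and chr3:112608662-112608721 (minus strand), so they do not sample separate parts of the gene.

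Mfap4, a microfibril-associated glycoprotein that binds elastin and fibrillin, read 4.30, 5.20 and 5.80 in vehicle pools. In the amiodarone pools it read 1.28, 1.15 and 1.86. The groups did not overlap, and the log2 difference was -1.85 (SE 0.22, limma adjusted p = 0.00327). The slides gave -1.96 and -1.64 for Mfap4, and -2.13 and -2.01 for Fbn1.

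Eln, which encodes the elastin precursor, was dim in this tissue. It read 0.214, 0.236 and 0.210 in vehicle pools, all well above background, and 0.0957, 0.154 and 0.0788 in amiodarone pools, of which only pool 2 was well above background. The log2 difference was -1.06 (SE 0.24, limma adjusted p = 0.0394). Of the 6 fits that left out 1 array, only the fit without amiodarone pool 2 kept the call (adjusted p = 0.0133). Leaving out any of the other 5 arrays lost it, with adjusted p up to 0.133. Under normexp the difference was -0.19 (adjusted p = 0.450). The same single Eln probe read higher in vehicle blood than in vehicle heart. Its processed signals before scaling were 69.8, 67.1 and 39.4 in vehicle blood, against 22.6, 38.8 and 27.6 in vehicle heart. Whether blood in the ventricle, or RNA other than that of Eln, added to the heart signal of this probe was not tested.

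In the rest of the elastic fibre list, the genes past the threshold moved the same way. Of 11 other tested genes of the list, 4 fell and none rose, with a median log2 difference of -0.58. A log2 difference below 0 was seen in 8 of the 11. Fbln2, Efemp1 and Ltbp1 were above 0, at 0.51, 0.46 and 0.14 (limma adjusted p = 0.107, 0.171 and 0.748). The groups did not overlap for Fbln2. Fbln5, a fibulin needed for elastic fibre assembly, read 0.806, 0.616 and 0.585 in vehicle and 0.304, 0.231 and 0.260 in amiodarone pools. It fell by 1.33 (SE 0.18, limma adjusted p = 0.00610), without overlap between groups. Fbn2, encoding a second fibrillin known mainly from development, fell by 2.44 (SE 0.36, limma adjusted p = 0.00851). It was well above background on only 1 of 3 amiodarone arrays, which limits how well the size of its fall is measured. Fbn2 thus entered the test only through the vehicle arrays, where it was higher. Emilin1, an elastin-associated glycoprotein, fell by 0.96 (SE 0.18, limma adjusted p = 0.0204). Mfap2, a small microfibril glycoprotein, fell by 0.80 (SE 0.18, limma adjusted p = 0.0346). Of the 6 fits that left out 1 array, Fbln5 and Fbn2 kept their calls in 6, Emilin1 in 2 (without amiodarone pool 1 or 3) and Mfap2 in 1 (without amiodarone pool 3). Under normexp, whose added 50 shrinks differences of dim probes, some of these genes moved less. Values were -0.51 for Fbln5 (adjusted p = 0.0355), -0.50 for Fbn2 (adjusted p = 0.0270) and -0.29 for Mfap2 (adjusted p = 0.182). Mfap3, Emilin2, Ltbp2 and Ltbp3 were not tested.

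**Figure D2:**
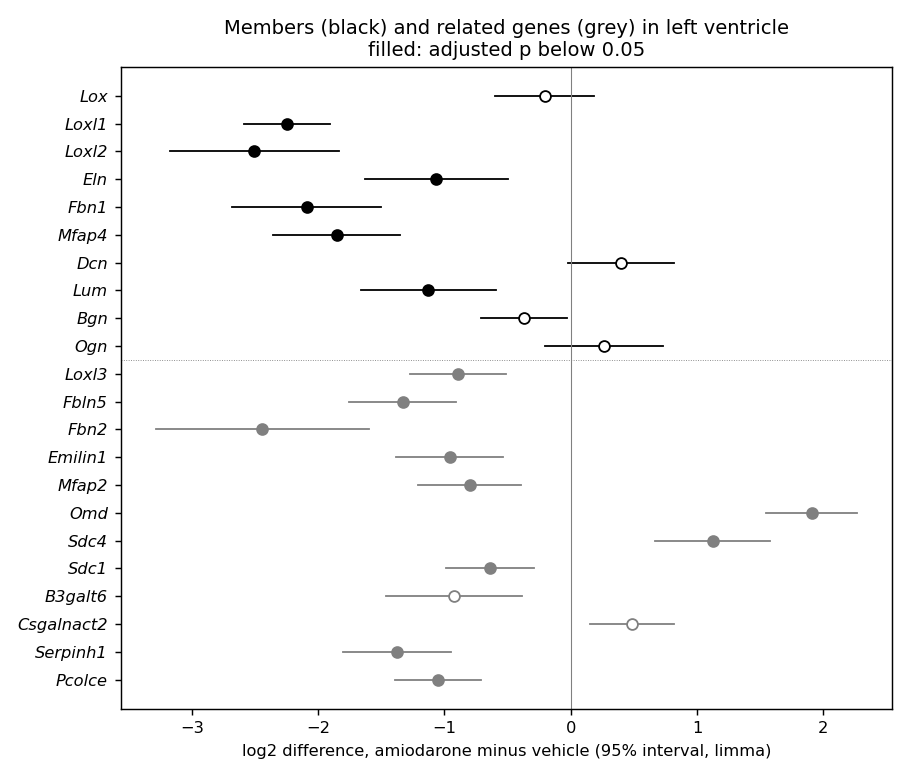
Log2 difference of amiodarone minus vehicle in left ventricle (horizontal axis) for the 10 members in black and 12 related genes in grey, with 95% intervals from limma. Filled points have an adjusted p below 0.05. Falls of members run from -1.06 for Eln to -2.51 for Loxl2, and Omd stands out on the right at 1.91.

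The small leucine-rich proteoglycans did not move together. Lum, encoding lumican, which regulates the assembly of collagen fibrils, fell, while Dcn, Bgn and Ogn did not pass the threshold. Lum read 3.01, 4.65 and 4.18 in vehicle and 2.31, 1.58 and 1.54 in amiodarone pools. The closest values were vehicle pool 1 and amiodarone pool 1, and the groups did not overlap. The log2 difference was -1.13 (SE 0.23, limma adjusted p = 0.0267). The call was lost without vehicle pool 2, vehicle pool 3, amiodarone pool 2 or amiodarone pool 3, with adjusted p up to 0.102, and held without either of the others.

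Dcn, encoding decorin, a collagen-binding proteoglycan that also binds TGF-beta, read 58.6, 75.8 and 68.6 in vehicle and 105.4, 74.7 and 88.4 in amiodarone pools. Amiodarone pool 2 lay within the vehicle range. On the log2 scale Dcn differed by 0.40 (SE 0.18, limma adjusted p = 0.219), with a 95% interval from -0.02 to 0.81. Dcn and Lum are neighbours on chromosome 7, in the order Btg1, Dcn, Lum, Kera and Epyc of the RefSeq annotation. The log2 ratio of Lum to Dcn within an array, again picked after the values were seen, was -4.12 ± 0.14 (SD, n = 3) in vehicle hearts, against -5.64 ± 0.18 (SD, n = 3) after amiodarone. The ratio was lower in every amiodarone pool than in any vehicle pool.

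Bgn, encoding biglycan, which is closely related to decorin and carries 2 glycosaminoglycan chains, read 102.7, 117.8 and 100.8 in vehicle hearts. In amiodarone hearts it read 91.0, 74.7 and 83.2. Each amiodarone pool was below each vehicle pool, by a small margin. On the log2 scale Bgn differed by -0.37 (SE 0.15, limma adjusted p = 0.170), with a 95% interval from -0.71 to -0.03 before adjustment. Bgn passed the threshold under 1 alternative, array weights, at -0.45 (adjusted p = 0.0265).

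Ogn, encoding osteoglycin, read 52.5, 34.4 and 49.1 in vehicle and 55.6, 46.3 and 59.8 in amiodarone pools by its brighter probe. The groups overlapped, and the log2 difference was 0.27 (SE 0.20, limma adjusted p = 0.455). The second Ogn probe read 13.0, 16.4 and 21.4 against 20.1, 16.8 and 14.8, a difference of 0.04 (limma adjusted p = 0.926 with each probe tested on its own). The probes differed by slide. The brighter one gave 0.26 and 0.28, and the other gave 0.33 and -0.53.

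One small proteoglycan that is not a member rose. Omd, encoding osteomodulin, lies next to Ogn on chromosome 17. It read 1.09, 1.38 and 1.04 in vehicle and 4.28, 4.32 and 4.45 in amiodarone pools, so the groups were far apart and the amiodarone pools were nearly equal. The log2 difference was 1.91 (SE 0.16, limma adjusted p = 0.000867), a 3.75-fold higher signal, and the call held in all 21 alternatives. The log2 ratio of Omd to Ogn within an array, a pair picked after the values were seen, was -5.26 ± 0.55 (SD, n = 3) in vehicle hearts, against -3.62 ± 0.18 (SD, n = 3) after amiodarone. Of the 4 tested genes of the small proteoglycan list that are not members, Omd rose and none fell, with a median of -0.43. Kera, Epyc, Chad and Podn were not tested.

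The fall in these genes stood beside other matrix genes. All 6 fibrillar collagen genes tested fell, with a median log2 difference of -2.05. Col1a1, a chain of collagen I, fell by 2.12. Of the chains of collagen V, Col5a1 fell by 1.97, Col5a3 fell by 2.37 and Col5a2 fell by 0.89 (limma adjusted p = 0.0413). Col5a2 was named after its value was seen, and its call held in 1 of the 6 fits that left out 1 array. Under normexp Col5a3 differed by -1.45 (adjusted p = 3.99e-06). Of 14 tested genes of collagen processing and folding, 2 fell and none rose, with a median of -0.32. They were Serpinh1, the collagen chaperone HSP47, which fell by 1.38 (SE 0.18, limma adjusted p = 0.00550), and Pcolce, an enhancer of procollagen cleavage, which fell by 1.05 (SE 0.15, limma adjusted p = 0.00673).

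Of 10 large or cell surface proteoglycans tested, Sdc4 rose and Sdc1 fell, with a median of 0.00 over genes that differed in both directions. Sdc4, a syndecan of focal adhesions, rose by 1.12 (SE 0.19, limma adjusted p = 0.0148), a call kept in 4 of the 6 fits that left out 1 array. Sdc1, another syndecan, fell by 0.64 (SE 0.15, limma adjusted p = 0.0412), a call that none of the 6 fits leaving out 1 array kept. None of 11 tested genes of glycosaminoglycan chain synthesis passed the threshold in limma, with a median of -0.21. The smallest p-values there belonged to B3galt6, a linker enzyme, at -0.92 (adjusted p = 0.0505), and to Csgalnact2, a chondroitin sulfate enzyme, at 0.49 (adjusted p = 0.0859). B3galt6 was dim and well above background on only 1 of 3 amiodarone arrays, so it entered the test only through the vehicle arrays. Under normexp B3galt6 differed by -0.13 (adjusted p = 0.667).

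**Figure D3:**
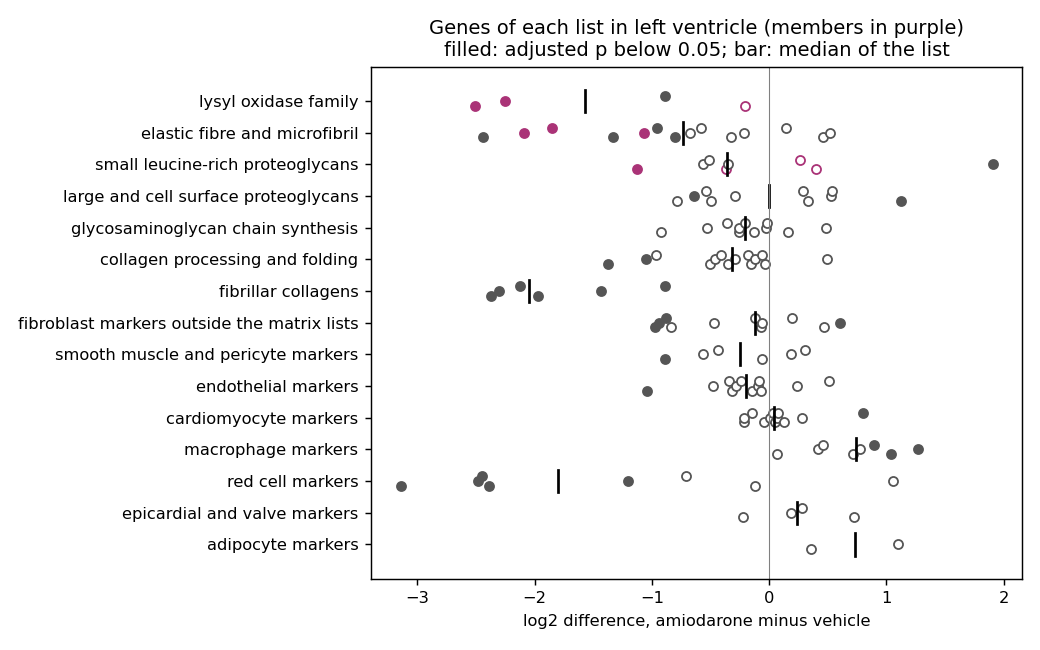
Log2 difference of amiodarone minus vehicle in left ventricle (horizontal axis) for each tested gene of each list (vertical axis); members are purple, filled points have an adjusted p below 0.05, and the vertical bar is the median of the list. The 6 fibrillar collagens are all filled and left of 0, macrophage markers lie to the right of 0, and most red cell markers lie far to the left.

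Markers of the cells that make matrix did not all fall. Of 11 fibroblast markers outside the matrix lists, 3 fell and 1 rose, with a median of -0.12. Islr fell by 0.94, Fap by 0.98 and Dpt by 0.88. Gsn rose by 0.61 (limma adjusted p = 0.0448). The summed scaled signal of these markers was 362 to 414 in vehicle and 512 to 599 in amiodarone pools. Gsn alone made up 307 to 358 and 461 to 544 of it, and without Gsn the sum was 55.1 to 61.4 in vehicle and 45.6 to 54.3 in amiodarone pools, so the direction turned. Of the 11 markers, 8 had a log2 difference below 0, and Thy1, Postn and Scara5 were not well above background on all arrays of a group. Of 6 smooth muscle and pericyte markers, Tagln fell by 0.89 and none rose, with summed signals of 442 to 486 in vehicle and 483 to 535 in amiodarone pools. Most of that sum was Des, which cardiomyocytes express too, and without Des it was 72.4 to 74.3 and 64.6 to 72.9. Of these 6 markers, 4 had a log2 difference below 0. Acta2, Myh11, Cnn1 and Lmod1 of the same list were not tested. Of 12 endothelial markers, Tie1 fell by 1.04 and none rose (summed signals 172 to 189 and 172 to 201). Kdr was the brightest of them, and without Kdr the sum was 83.6 to 87.2 in vehicle and 70.4 to 80.8 in amiodarone pools. Of these 12 markers, 10 had a log2 difference below 0. Of 12 cardiomyocyte markers, Myh7 rose by 0.80 and none fell. With 1 array left out in turn, the calls of Islr and Fap held in all 6 fits, that of Tie1 in 2, those of Dpt and Tagln in 1 each, and those of Myh7 and Gsn in none. Under normexp Fap differed by -0.52 and Tie1 by -0.57, both past the threshold.

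Markers of blood and macrophages differed between the groups. Of 8 red cell markers, 5 fell, with a median of -1.80 and summed signals of 69.3 to 102 in vehicle and 18.2 to 22.1 in amiodarone hearts. The clearest were Hbb at -2.39, Alas2 at -3.14 and Rhd at -2.45. Of 8 macrophage markers, C1qb, Mrc1 and Lyve1 rose, by 0.89, 1.27 and 1.04, with a list median of 0.74 and summed signals of 39.7 to 56.5 in vehicle and 72.4 to 92.1 in amiodarone hearts. None of 4 epicardial and valve markers and none of 2 adipocyte markers passed the threshold, with medians of 0.23 and 0.73. The calls of Hbb, Alas2 and Rhd held in all 6 fits that left out 1 array, those of C1qb and Mrc1 in 2 and that of Lyve1 in 1. Under normexp Rhd differed by -1.21 (adjusted p = 0.000123). The part of any of these cell types in the falls of the members was not tested.

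**Figure D4:**
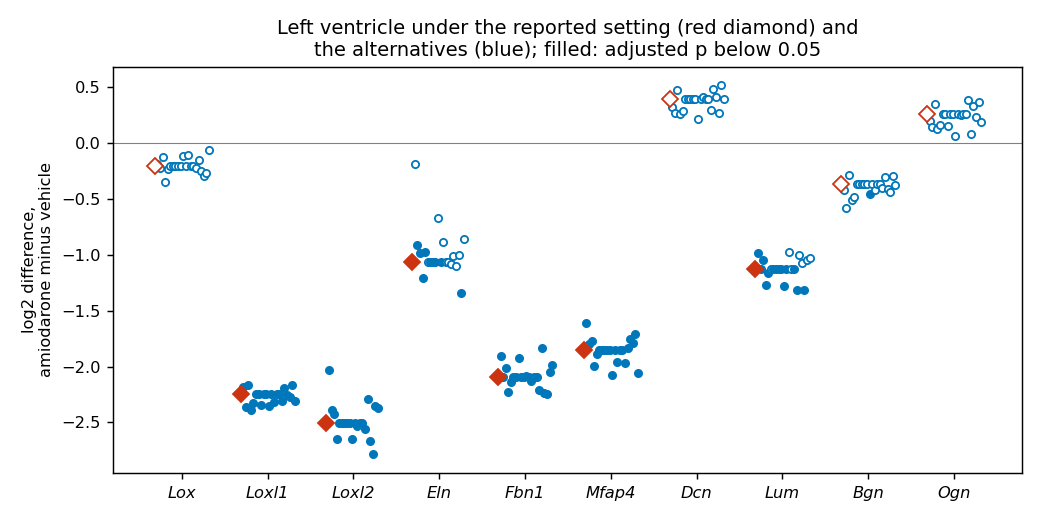
Log2 difference of amiodarone minus vehicle (vertical axis) of each member in left ventricle under the reported setting (red diamond) and up to 21 alternatives (blue circles); filled symbols have an adjusted p below 0.05. Loxl1, Loxl2, Fbn1 and Mfap4 are filled throughout, and the open symbols of Eln and Lum are the settings in which the call was lost.

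Genes with a course like the mean of the members were sought over the 6 heart arrays. The mean of the 9 members that were well above background on all 6 arrays, each centred on its own mean, was 0.42, 0.70 and 0.51 log2 in vehicle pools and -0.35, -0.71 and -0.57 in amiodarone pools. Among 15420 genes compared, the closest by root-mean-square difference were Lxn (0.0505), Ndn (0.0594), Gap43 (0.0745) and Kazald1 (0.0752). Their log2 differences, amiodarone minus vehicle, were -0.98, -1.10, -1.05 and -1.20. Each of the 9 members lay farther from the mean than these genes. The genes were picked for the smallest distance among the 15420, so their closeness is a description only. Lum, at 0.162, was the member nearest to the mean, and Loxl2, at 0.752, was the farthest.

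Promoters were available for 4 of the 10 members in the RefSeq table of build GRCr8, namely Loxl1, Fbn1, Lum and Ogn. That of Loxl1, the member with the smallest p, is printed over the 250 bases before the annotated start, chr8:67612225-67612474, on the minus strand. Capitals mark CAGAC, the SMAD half-site, on either strand.
Loxl1 promoter: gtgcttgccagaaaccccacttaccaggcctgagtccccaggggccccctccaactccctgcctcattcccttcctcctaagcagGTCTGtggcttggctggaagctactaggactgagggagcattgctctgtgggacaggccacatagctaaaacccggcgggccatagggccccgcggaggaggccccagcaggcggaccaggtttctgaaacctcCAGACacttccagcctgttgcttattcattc
CAGAC was found 2 times in Loxl1, 1 time in Fbn1, 3 times in Lum and 1 time in Ogn. At least 1 match occurs in 42.9% of 33469 promoters of this length. TATAAA was found in Ogn, as 2 matches that overlap on opposite strands, and in none of the other 3, against 12.9% of all promoters, and GGGCGG in none of the 4, against 30.5%. Both strands were read for all 3 motifs. A match is a description of the letters and not a site.

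In whole blood only Eln and Bgn were well above background on all 3 arrays of a group and could be tested. The other 8 members were not, and no difference is given for them. The blood arrays differed in overall brightness, with a 75th percentile of 20.2 to 25.3 in vehicle and 54.1 to 83.5 in amiodarone pools. Of 15652 features tested in blood, 68.1% passed the threshold, 26.9% as lower and 41.2% as higher, and in 74.1% the groups did not overlap. That both members passed is therefore near the background. The median log2 difference of all blood features was 0.45 after scaling and 2.04 without it.

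Bgn read 63.7, 89.9 and 93.5 in vehicle blood and 281.6, 185.2 and 369.2 in amiodarone blood, with no overlap. The log2 difference was 1.72 (SE 0.29, limma adjusted p = 0.00254), and under normexp it was 1.66 (adjusted p = 0.0580). Eln read 2.76, 3.33 and 1.63 in vehicle and 0.630, 1.10 and 0.621 in amiodarone blood. Its log2 difference was -1.71 (SE 0.34, limma adjusted p = 0.00441), but -0.13 (adjusted p = 0.762) without scaling and -0.50 (adjusted p = 0.0773) under normexp. The part of the brightness difference in these blood values was not tested.

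The difference between tissues was itself tested for both genes, over 13029 features measured in both, of which 51.5% passed. The fit takes the 12 arrays as independent, and the labels do not say whether heart and blood pools share rats. The drug effect on Bgn in heart minus that in blood was -2.09 (SE 0.34, limma adjusted p = 0.000759), from -0.37 in heart and 1.72 in blood. For Eln it was 0.65 (SE 0.44, limma adjusted p = 0.229), and without scaling it turned to -1.08 (adjusted p = 0.0472).

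**Figure D5:**
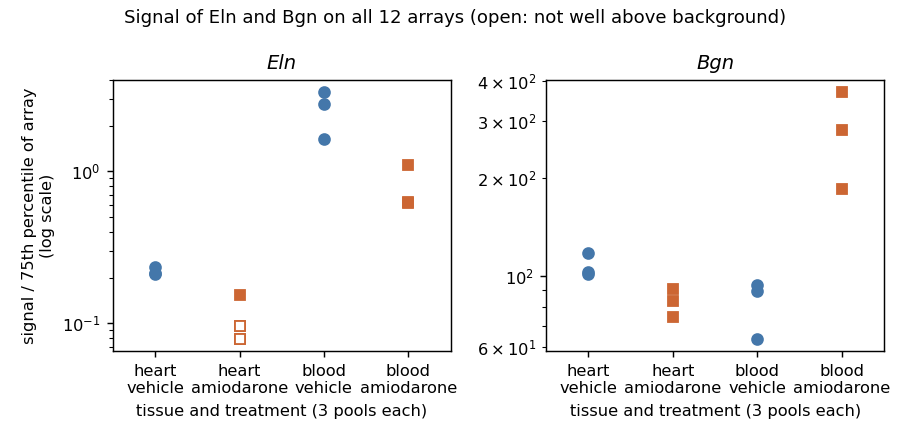
Scaled signal (processed signal over the 75th percentile of the array, log axis) of Eln and Bgn in the 3 pools of each group of heart and blood. Circles are vehicle and squares are amiodarone pools, and open symbols were not well above background. Bgn is higher in amiodarone than in vehicle blood and slightly lower in amiodarone than in vehicle heart, and Eln is lower with amiodarone in both.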

How the data were processed

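Heart and blood RNA of 12 pools was measured on 1 array each. Per the file headers, Agilent Feature Extraction 9.5.1.1 computed a processed intensity for each spot, background-subtracted and detrended, with no normalization between arrays. The deposited value table of the authors holds normalized intensity by a method not given in the sources used here, and it served as an alternative only.

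Here, outlier spots were left out, spots of a probe averaged, and log2 signal scaled by the array's 75th percentile. Probes entered the test if all 3 arrays of either group read them well above background, and a gene was its brightest such probe. Probes were named through the rat annotation by accession (16336), symbol (3735) or synonym (1099), the other 19842 as in the file. Heart and blood were fitted separately in R 4.3.3 (limma 3.58.1, version 1.17.8 of data.table), two-sided, Benjamini-Hochberg threshold 0.05. Tissues were compared by a contrast over 12 arrays, taken as independent.

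The members and lists were chosen with earlier results of these data known. The text names all members, up to 4 genes past the threshold per matrix list (or 2 as plain values), up to 3 per marker list and the collagens, and the closest genes by profile. Gsn, Col5a2, Fbln2, Efemp1 and Ltbp1 were named after their values were seen. Levels of Eln and other dim genes are limited by background, and precision is limited by the 3 arrays per group. No arrays were identical. Alternatives covered background, scaling, filter, probe choice, variance model, slide, replicate block and each array left out. The values of the second slide alone were chosen after seeing the data. A closest gene carried only by an accession is not named.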

Additional observations from a re-analysis of the deposited data

Results flagged for a closer look

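Bgn, which encodes biglycan, had a drug effect that differed between heart and blood by a direct test. Its effect in heart minus that in blood was -2.09 on the log2 scale (SE 0.34, limma adjusted p = 0.000759). The effect was -0.37 in heart, where all 3 amiodarone pools were below the vehicle pools, and 1.72 in blood, where all 3 were above. Of the 2 members measured in both tissues, Bgn passed and Eln did not (0.65, adjusted p = 0.229), and 51.5% of the 13029 features tested passed, so passing is near the background. Without scaling Eln passed too, at -1.08 (adjusted p = 0.0472). Over the alternatives that gave a value, the Bgn difference ranged from -3.82 without scaling to -1.86 and stayed past the threshold, with adjusted p up to 0.0188. Blood arrays of the amiodarone group had a higher 75th percentile, and the part of this in the difference was not tested.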

How the results depend on the processing

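Loxl1, Fbn1 and Mfap4 kept direction and call in all 21 alternatives, and Loxl2 in the 20 that gave it a value. Eln lost its call in 11 of 20 and Lum in 7 of 21. Lox, Dcn and Ogn passed under none, and no member changed sign in heart. The count of members past the threshold was 4 to 5 with 1 array left out. The heart count over all features, 1502, fell to 734 without scaling, 285 without the filter on dim probes, 286 on the first slide alone and 749 with the replicate block, and rose to 4272 with array weights. Leaving out 1 array gave 537 to 1379, the lowest being without vehicle pool 3 (537), vehicle pool 1 (618), vehicle pool 2 (637) and amiodarone pool 2 (664). The blood count, 10662, was 1287 under normexp with its added 50 and 24651 without the filter, and 8446 to 10710 with 1 array left out. The tissue difference, 6716, was 1235 under normexp, 10262 without scaling and 18826 without the filter, and 5637 to 7209 with 1 array left out. The heart minus blood difference of Eln reversed to -1.08 without scaling. The causes were not tested. Of the heart calls 52.0% were higher, 64.1% under array median scaling and 30.7% without scaling, and these scalings moved the median of all heart genes from 0.03 to 0.11 and -0.11. Deviations of same-numbered heart pools had correlations of -0.17, -0.24 and 0.32, and those of differently numbered pools ranged from -0.19 to 0.35. No pairing of the numbers is known, and these values cannot decide whether there is one. The replicate block ended the heart calls of Eln (adjusted p = 0.0526) and Lum (adjusted p = 0.0840) and of no other member.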
